A study of Mus musculus with 8 samples.

Results

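Noncoding RNAs of the Platr and Snhg families were followed by RNA-seq in E14, an established line of mouse embryonic stem cells. The members are the genes whose symbol is Platr or Snhg followed by digits, with symbols from the GENCODE M21 annotation of GRCm38, the assembly called mm10. They comprise 45 of the 54232 genes in each count table, 30 Platr genes and 15 Snhg genes, and Snhg7os, an antisense gene, is among the Snhg genes. All 45 were in both tables, and together they held 0.0710% to 0.0803% of the counts of a library. The annotation gives Platr17, Platr25 and Snhg11 as protein coding and the other members as noncoding.

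The libraries fall into 4 groups of 2. In the first experiment, cells edited at Ssrp1 by CRISPR/Cas9 were compared with controls. In the second, cells given a plasmid that carries an shRNA against Usp7 were compared with their own controls. Per the labels, the plasmid dose was 1000 ng, and 1 ug/ml puromycin followed after 24 h and lasted 3 days. All cells carry the strain label 12910la and grew on gelatin with 15% serum and 10 ng/ml LIF, a cytokine that holds stem cells in the undifferentiated state. The protocol speaks of wild-type cells and of Ssrp1 knockout cell lines; it gives neither the number of clones nor the plasmid that the Usp7 controls received. Ssrp1 is a subunit of FACT, which loosens nucleosomes for RNA polymerase and puts them back behind it. Usp7 is a deubiquitinase with substrates among chromatin and p53 pathway proteins. The comparisons ask how RNA levels differ after each gene is targeted.

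Platr stands for pluripotency-associated transcript. These RNAs were catalogued because their levels follow the pluripotent state of mouse embryonic stem cells, and depletion of some, among them Platr4, Platr10 and Platr14, has been reported to alter pluripotency or lineage genes. Snhg stands for small nucleolar RNA host gene. The introns of these genes carry snoRNAs, which guide chemical modification of ribosomal and spliceosomal RNA. The spliced host RNA is a by-product that for several members is a known substrate of nonsense-mediated decay, the pathway that removes RNAs with early stop codons.

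The families differ in sequence at their start sites. RefSeq (GRCm38.p6) gave a window of 300 bases, 250 before and 50 after the start, for 13 of 30 Platr genes and 14 of 15 Snhg genes. CG dinucleotides, which are dense in CpG island promoters, numbered 0 to 9 in Platr windows (median 4) and 2 to 36 in Snhg windows (median 25), against a median of 8 over 27025 genes. At least 10 were present in 0 of 13 Platr genes, in 12 of 14 Snhg genes and in 45.8% of all genes. The Snhg genes below 10 were Snhg14 and Snhg7os, and the RefSeq start of Snhg14 lies 474418 bp from the start of the gene that was counted. Where a gene had several windows, the window with the most CG dinucleotides was taken.

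The windows shown belong to Platr14, the Platr RNA that fell in the knockdown; Platr10, the Platr RNA with the highest mean CPM over the 8 libraries; Snhg1, the Snhg RNA with the highest such mean, though it did not lead in the Ssrp1 controls or the Usp7 knockdown; and Snhg8, the Snhg RNA with the lowest log2 change. They cover chr2:104559209-104559508 (plus strand) for Platr14, chr3:75655682-75655981 (minus strand) for Platr10, chr19:8723237-8723536 (plus strand) for Snhg1 and chr3:123508287-123508586 (minus strand) for Snhg8. Each is read 5′ to 3′ on its gene's strand, with CG dinucleotides in capitals.
Platr14: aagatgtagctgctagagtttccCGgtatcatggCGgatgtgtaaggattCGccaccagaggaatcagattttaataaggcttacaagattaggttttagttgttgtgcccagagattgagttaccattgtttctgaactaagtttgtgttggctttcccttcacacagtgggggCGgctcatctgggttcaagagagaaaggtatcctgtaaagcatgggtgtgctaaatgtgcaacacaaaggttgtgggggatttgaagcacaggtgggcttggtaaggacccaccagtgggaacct
Platr10: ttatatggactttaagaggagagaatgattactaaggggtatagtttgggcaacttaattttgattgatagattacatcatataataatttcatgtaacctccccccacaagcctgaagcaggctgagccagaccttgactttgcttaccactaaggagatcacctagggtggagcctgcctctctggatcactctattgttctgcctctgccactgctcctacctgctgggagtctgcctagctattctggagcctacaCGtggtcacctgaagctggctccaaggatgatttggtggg
Snhg1: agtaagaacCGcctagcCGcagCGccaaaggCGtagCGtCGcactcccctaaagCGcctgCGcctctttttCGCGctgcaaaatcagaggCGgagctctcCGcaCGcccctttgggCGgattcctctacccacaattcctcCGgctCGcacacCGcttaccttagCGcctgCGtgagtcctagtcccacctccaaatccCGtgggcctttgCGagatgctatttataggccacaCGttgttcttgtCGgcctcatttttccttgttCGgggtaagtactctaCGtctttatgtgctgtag
Snhg8: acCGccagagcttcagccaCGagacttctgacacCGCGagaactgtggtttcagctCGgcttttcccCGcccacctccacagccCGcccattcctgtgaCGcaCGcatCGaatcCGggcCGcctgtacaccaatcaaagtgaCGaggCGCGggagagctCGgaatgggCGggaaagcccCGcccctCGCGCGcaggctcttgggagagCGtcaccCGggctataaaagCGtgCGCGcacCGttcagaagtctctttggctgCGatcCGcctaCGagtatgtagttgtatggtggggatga
Platr14 has 4 CG dinucleotides in this window and Platr10 has 1, while Snhg1 has 25 and Snhg8 has 30. The RefSeq start lies inside the counted gene by 296 bp in Platr14, 68 bp in Snhg8 and 12 bp in Snhg1, and coincides with its start in Platr10.

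Short motifs were searched on both strands of every window of a gene, for members and for all genes alike. The octamer ATTTGCAT, a sequence bound by Oct4, was in 1 of 13 Platr genes (Platr21, in its window with fewer CG dinucleotides), in 0 of 14 Snhg genes and in 1.97% of all genes. ACAATGG, bound by Sox proteins, was in 1 Platr gene (Platr14), in 0 Snhg genes and in 4.15% of all genes. TATAAA, a core of the TATA box, was in 1 Platr gene (Platr5), in 5 Snhg genes (Snhg1, Snhg3, Snhg5, Snhg8 and Snhg9) and in 15.7% of all genes. These matches describe letters in the windows only.

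**Figure D1:**
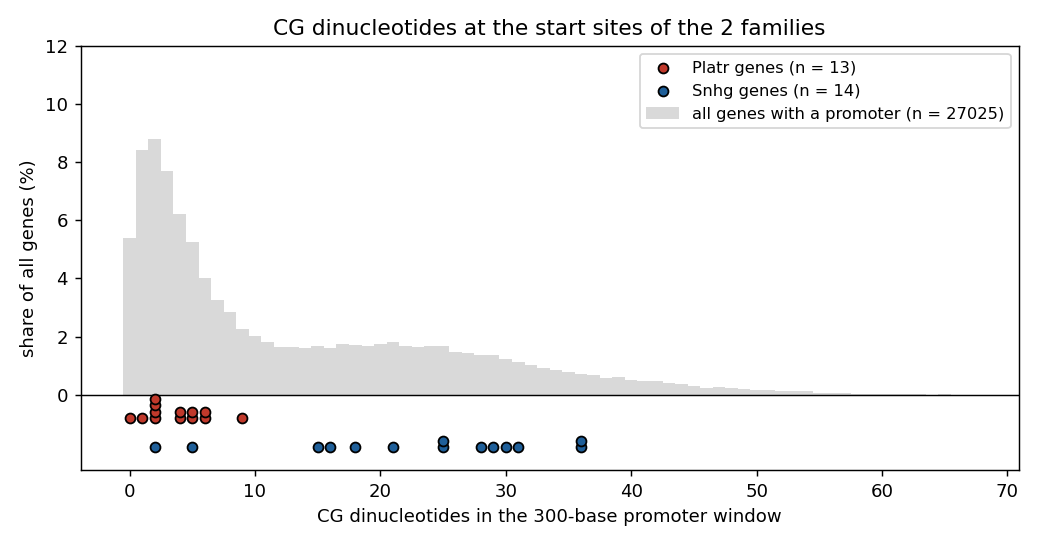
Number of CG dinucleotides in the 300-base window around the RefSeq start (horizontal axis), as a share of all 27025 genes (grey bars, percent) and for each Platr gene (red points, n = 13) and Snhg gene (blue points, n = 14), drawn under the bars with equal counts stacked. Every Platr point lies at 9 or less, and 12 of 14 Snhg points lie above 10.

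Total counts ranged from 15879056 to 18361130 per library. Levels are CPM, counts scaled to a common library total within each experiment, and 1 count corresponds to 0.0549 to 0.0658 CPM. The 8 embryonic stem cell markers summed to 4611 to 9119 CPM per library, while 10 fibroblast markers summed to 20.2 to 61.2 CPM and 12 differentiation markers to 26.4 to 91.7 CPM. The Ssrp1 transcript was at 400 and 120 CPM in the libraries labelled knockout, against 423 and 460 CPM in controls, and did not pass the test (log2 change -0.77, SE 0.45, adjusted p = 0.411 by edgeR's quasi-likelihood test with Benjamini-Hochberg adjustment). Replicate 1 of these libraries stood near the control level, so directions refer to the libraries labelled knockout. The Usp7 transcript fell to 117 and 128 CPM in knockdown libraries, against 386 and 381 CPM in controls (log2 change -1.64, SE 0.19, edgeR adjusted p = 0.00125; 0.131 without knockdown replicate 2). Whether the 2 replicates of a group were grown separately is not stated, so the spread behind each p-value may be technical.

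Most Platr RNAs were present at a low level. Mean CPM over the 8 libraries ran from 0.203 for Platr1 to 109 for Platr10, with a median of 2.89 over the family; 5 members were at 10 CPM or more and 10 were below 1 CPM. Snhg RNAs were more abundant, with a median of 29.6 CPM, 10 of 15 members at 10 CPM or more and 2 below 1 CPM. Snhg9 had 1 count in all 8 libraries together. Per kb of merged exon sequence, the scale on which different genes can be set side by side, the level of Platr10 averaged over the 8 libraries was the highest of both families at 62.3 CPM per kb. Snhg8 followed at 41.7, Snhg5 at 41.0, Snhg6 at 36.2 and Platr17 at 33.7 CPM per kb. Platr11, Snhg1, Platr3 and Platr14 came next at 25.0, 24.7, 22.6 and 22.4 CPM per kb, values that lie within the spread between libraries of each other. The merged exons of Snhg1, Snhg8 and Snhg12 form 1 block each that covers retained introns, so their length is that of the whole gene. The order of the group means was not the same in every group: in the Ssrp1 controls Snhg8 was at 77.3 and Platr10 at 73.4 CPM per kb. Platr10 had the highest mean in the other groups. These are means of 2 libraries, and Platr10 was at 205 and 59.3 CPM in the libraries labelled Ssrp1 knockout.

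Summed over the family, Platr RNAs were at 432 and 215 CPM in libraries labelled Ssrp1 knockout, against 251 and 259 CPM in controls, and these ranges overlapped. Of this sum Platr10 had 205 and 59.3 CPM in libraries labelled Ssrp1 knockout, against 129 and 127 CPM in controls. The Platr sum was 234 and 241 CPM in Usp7 knockdown libraries, against 316 and 285 CPM in controls, with no overlap. Of this sum Platr10 had 61.0 and 73.7 CPM in knockdown libraries, against 127 and 88.1 CPM in controls. Platr14 had 17.9 and 8.84 CPM in knockdown libraries, against 46.5 and 41.5 CPM in controls. The lower sum was not a fall across the family: of 25 members tested 13 had a log2 change above 0 and 12 below, with a median of 0.02. The 8 stem cell markers summed to 4896 and 4611 CPM in Usp7 knockdown libraries, against 6217 and 5168 CPM in controls. Of them edgeR called 0 (2.99% of all genes), DESeq2 called 1 and 2 had an unadjusted p under 0.05 (16.7% of all genes). The 12 differentiation markers summed to 79.9 and 91.7 CPM in knockdown libraries, against 49.95 and 54.4 CPM in controls, with 0 and 1 of the 12 at 0 in knockdown libraries, against 1 and 1 in controls. Of 9 tested, Pax6, a neural transcription factor, was the 1 called higher (log2 change 1.27, SE 0.24, edgeR adjusted p = 0.0201), where 2.36% of all genes were. Its log2 change ran from 1.08 to 1.47 with a library left out. It lost the call in 2 of 6 settings that kept every library (edgeR or DESeq2 adjusted p up to 0.118). At an unadjusted p under 0.05 there were 5 of the 9, all higher (16.7% of all genes), and DESeq2 called 1. In the Ssrp1 experiment the stem cell markers summed to 6859 and 6607 CPM in libraries labelled knockout, against 9119 and 6772 CPM in controls. The differentiation markers summed to 52.4 and 39.6 CPM in libraries labelled knockout, against 26.4 and 39.2 CPM in controls, with 0 and 0 of the 12 at 0 in libraries labelled knockout, against 2 and 1 in controls. Of 7 tested here edgeR called 0 and DESeq2 called 2. At an unadjusted p under 0.05 there were 4, 3 higher and 1 lower (18.2% of all genes). Pax6 was at 3.88 and 3.68 CPM in libraries labelled knockout, against 11.88 and 13.03 CPM in controls. Its log2 change of -1.72 (SE 0.45) did not pass the test (edgeR adjusted p = 0.0651). In a fit of all 8 libraries its Ssrp1 change minus its Usp7 change was -3.03 (edgeR adjusted p = 0.0132). Of the marker sums, those of the stem cell markers in the Ssrp1 experiment overlapped between groups and the others did not. The part of these markers in the Platr and Snhg values was not tested. Snhg RNAs summed to 400 and 449 CPM in libraries labelled Ssrp1 knockout, against 533 and 425 CPM in controls. They summed to 469 and 479 CPM in Usp7 knockdown libraries, against 552 and 461 CPM in controls. The Snhg sums overlapped between groups in both experiments. In bulk samples, fewer cells that express an RNA and less RNA per cell cannot be told apart.

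In the libraries labelled Ssrp1 knockout, Platr15 and Platr25 were called higher and no Platr gene was called lower. Of the 30 Platr genes 22 had enough counts to be tested, and 2 were called at an adjusted p under 0.05, against 3.71% of the 15757 genes tested (3.39% higher and 0.324% lower). The median log2 change of the 22 was 0.79, against 0.03 over all genes tested, and was 0.47 once GC content and length were corrected for (0.01 over all genes). The change was above 0 for 17 and below 0 for 5, against 51.9% of all genes above 0. Both libraries labelled knockout lay above both controls for 11 of the 22 (27.3% of all genes) and below both for 2 (22.7% of all genes). A log2 change beyond 1 in size was seen in 12 of the 22, or 54.5%, against 19.2% of all genes tested. An unadjusted p under 0.05 was seen in 6 (18.2% of all genes). Platr15, Platr16 and Platr31 reached the filter of about 10 counts in 2 libraries only through the libraries labelled knockout. Their counts there were 80 and 78, 13 and 20, and 13 and 23, against 9 and 11, 4 and 9, and 5 and 10 in controls. Members let in this way can hardly show a fall, so the numbers above lean towards rises.

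Platr15, a long intergenic RNA (ENSMUSG00000086563, chromosome 2, 150704536 to 150706876, minus strand), had 5.26 and 4.28 CPM in libraries labelled Ssrp1 knockout, against 0.591 and 0.623 CPM in controls. The underlying counts were 80 and 78 against 9 and 11. All values labelled knockout lay above the controls. The log2 change was 2.96 (SE 0.63, edgeR adjusted p = 0.0312), a 7.77-fold difference. Without control replicate 1 the adjusted p was 0.427 and without control replicate 2 it was 0.163, with log2 changes of 2.90 and 2.98. In the Usp7 experiment the RNA had 2.16 and 5.00 CPM in knockdown libraries, against 2.71 and 6.58 CPM in controls, so the groups overlapped and replicate 2 was the higher in each.

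Platr25 (ENSMUSG00000074863, chromosome 13, 62671784 to 62760709, minus strand) spans 15 exon blocks in a region of related zinc finger genes; reads shared with near copies would make its counts uncertain. It had 22.0 and 8.45 CPM in libraries labelled Ssrp1 knockout, against 1.44 and 2.94 CPM in controls. The groups did not overlap, although replicate 1 labelled knockout was far above replicate 2. The log2 change was 2.78 (SE 0.60, edgeR adjusted p = 0.0326). It was 1.65 (adjusted p = 0.119) once GC content and length were corrected for, and 2.35 (adjusted p = 0.36) without control replicate 1. In the Usp7 experiment Platr25 was at 12.5 and 15.0 CPM in knockdown libraries, against 13.2 and 14.9 CPM in controls.

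Other Platr RNAs had large changes that did not pass the test. Platr5, a short intergenic RNA, had 10.1 and 4.99 CPM in libraries labelled Ssrp1 knockout, against 2.49 and 1.87 CPM in controls (log2 change 1.78, SE 0.58, edgeR adjusted p = 0.118). Platr20 had 1.18 and 1.48 CPM in these libraries, against 4.73 and 2.55 CPM in controls (log2 change -1.44, SE 0.63, edgeR adjusted p = 0.254). Neither overlapped between groups. Platr16 shares 290 bp of exon with the pseudogene Gm13230 on the same strand, so its log2 change of 1.31 may hold reads of that gene. Of the most abundant members, Platr10, Platr7 and Platr11 had log2 changes of 0.05, 0.11 and 0.16, and Platr17 had -0.77, none past the test.

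**Figure D2:**
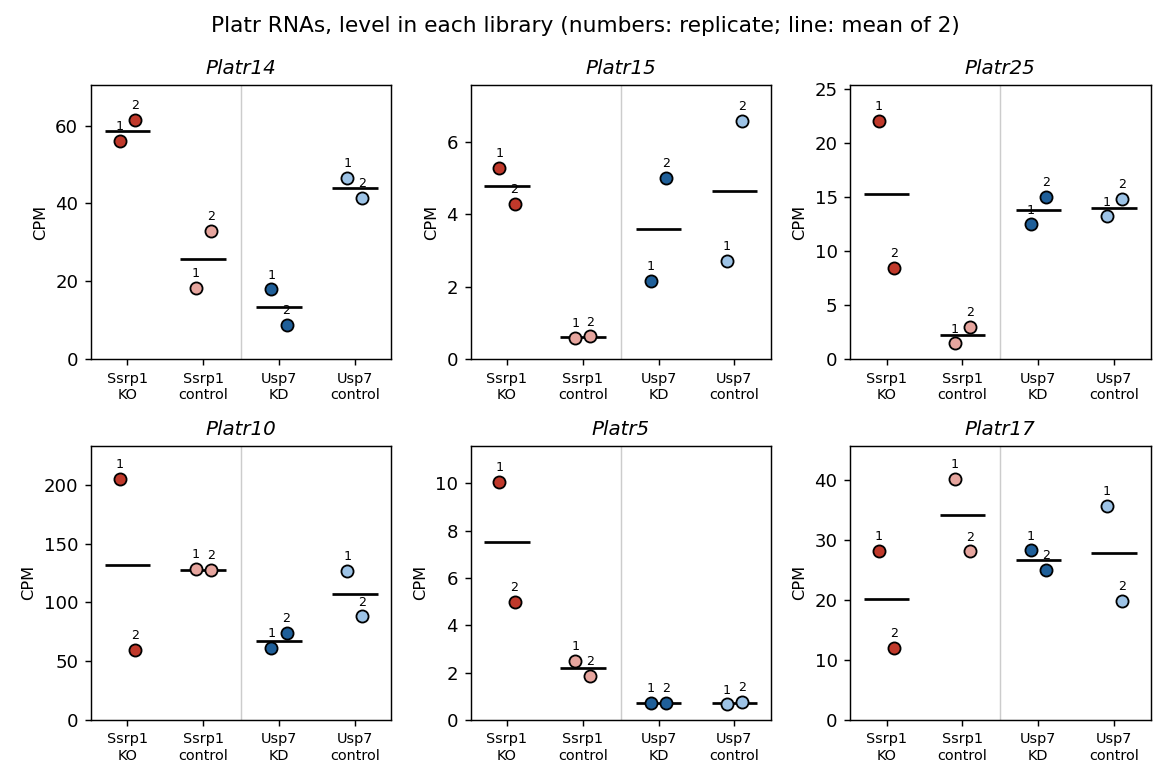
CPM (vertical axis, from 0) of 6 Platr RNAs in each library of the Ssrp1 knockout, Ssrp1 control, Usp7 knockdown and Usp7 control groups. Points are libraries with their replicate number and lines are means of 2. Platr15 and Platr25 are lowest in the Ssrp1 controls, and Platr14 is lowest in the Usp7 knockdown at 17.9 and 8.84 CPM.

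The Ssrp1 controls held the lowest mean of the 4 groups for 14 of the 25 Platr genes tested over all 8 libraries and for 3 of 14 Snhg genes, against 33.7% of all genes. This count compares levels across experiments that were scaled separately and was not tested. Other gene lists also differed between the groups of this experiment. Of 18 tested markers of 2-cell-like cells, which appear rarely in stem cell cultures, 15 rose (3.39% of all genes), and the 19 of 20 listed genes found in the tables summed to 755 and 2087 CPM in libraries labelled Ssrp1 knockout, against 95.4 and 246 CPM in controls. Of these 19 genes 0 were at 0 in the libraries labelled knockout, against 2 and 0 in the controls. Markers low in controls may have reached the count filter only through the libraries labelled knockout, and could then hardly show a fall. Mitochondrially encoded genes were 7.31% and 2.81% of counts in libraries labelled knockout, against 0.732% and 0.776% in controls. The 80 ribosomal protein genes summed to 82490 and 86060 CPM in libraries labelled knockout, against 160800 and 107700 CPM in controls. The part of these differences in the Platr and Snhg values was not tested.

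In Usp7 knockdown cells Platr14 was called lower and no Platr gene was called higher. Of 30 Platr genes 25 were tested and 1 was called, against 2.99% of 15915 genes (2.36% higher and 0.628% lower). The median log2 change was 0.02, against -0.02 over all genes tested, with 13 above 0 (48.4% of all genes) and 12 below. Both knockdown libraries lay above both controls for 5 of the 25 (24.6% of all genes) and below both for 4 (23.4% of all genes). A log2 change beyond 1 in size was seen in 3 of the 25, against 9.24% of all genes. Among them Platr30 and Platr31 reached the count filter only through the knockdown libraries, where they were high. Their counts there were 16 and 32, and 13 and 13, against 7 and 9, and 4 and 4 in controls. Of 12 tested markers of 2-cell-like cells 10 rose here (2.36% of all genes), and the same 19 genes summed to 55.4 and 40.6 CPM in knockdown libraries, against 6.66 and 7.69 CPM in controls. Of the 19, 2 and 3 were at 0 in knockdown libraries, against 5 and 4 in controls. The highest of the 19 was at 1.30 and 1.47 CPM in controls. Members of the 12 may thus have reached the count filter only through the knockdown libraries. Such members can hardly show a fall, so the count leans towards rises. The part of these markers in the Platr values was not tested.

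Platr14 (ENSMUSG00000086454, chromosome 2, 104559163 to 104571429, plus strand), whose depletion in stem cells has been reported to alter differentiation genes, had 17.9 and 8.84 CPM in Usp7 knockdown libraries, against 46.5 and 41.5 CPM in controls. Both knockdown values lay below both controls, at 30.4% of the control level. The log2 change was -1.72 (SE 0.30, edgeR adjusted p = 0.0125). It was -1.30 (adjusted p = 0.297) without knockdown replicate 2, and the adjusted p was 0.112 without a filter on low counts and 0.0749 in a fit of all 8 libraries. In the Ssrp1 experiment the same RNA had 56.05 and 61.4 CPM in libraries labelled knockout, against 18.4 and 32.9 CPM in controls. These groups did not overlap either, and the log2 change of 1.19 (SE 0.34) did not pass the test (edgeR adjusted p = 0.0815). It passed in 5 of 10 alternatives: with DESeq2 (adjusted p = 0.0315), without a filter (0.0242), with the replicate block (0.0295) and without knockout replicate 1 or knockout replicate 2 (0.0252 and 0.0425). It was 0.79 (adjusted p = 0.272) once GC content and length were corrected for and 0.81 (adjusted p = 0.699) without control replicate 1.

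The difference between the 2 changes was tested in a fit of all 8 libraries, as the Ssrp1 change minus the Usp7 change. For Platr14 it was 2.87 on the log2 scale (SE 0.49, edgeR adjusted p = 0.0258). It was the single member called of 25 Platr and 14 Snhg genes tested, against 1.0% of 17052 genes. Without Ssrp1 control replicate 1, Usp7 control replicate 1, Usp7 control replicate 2 or Usp7 knockdown replicate 2 its adjusted p was 0.116, 0.112, 0.0719 and 0.173. Platr15, Platr25 and Snhg14 had differences of 3.28, 2.77 and 2.67 (edgeR adjusted p = 0.0863, 0.0756 and 0.0763), which did not pass the test.

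Platr10, which has been reported to sustain Oct4 expression in stem cells, had 61.0 and 73.7 CPM in Usp7 knockdown libraries, against 127 and 88.1 CPM in controls. The groups did not overlap, and the log2 change of -0.67 (SE 0.22) did not pass the test (edgeR adjusted p = 0.146). Platr8 and Platr23 had log2 changes of -0.54 and 0.62 and overlapped between groups (edgeR adjusted p = 0.587 and 0.54). Platr31 and Platr30 had log2 changes of 1.58 and 1.48 on 4 to 32 counts per library (edgeR adjusted p = 0.255 and 0.234). Platr31 shares 122 bp of exon with Tigar on the opposite strand, and the strand mode of counting is not given in the sources used here.

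**Figure D3:**
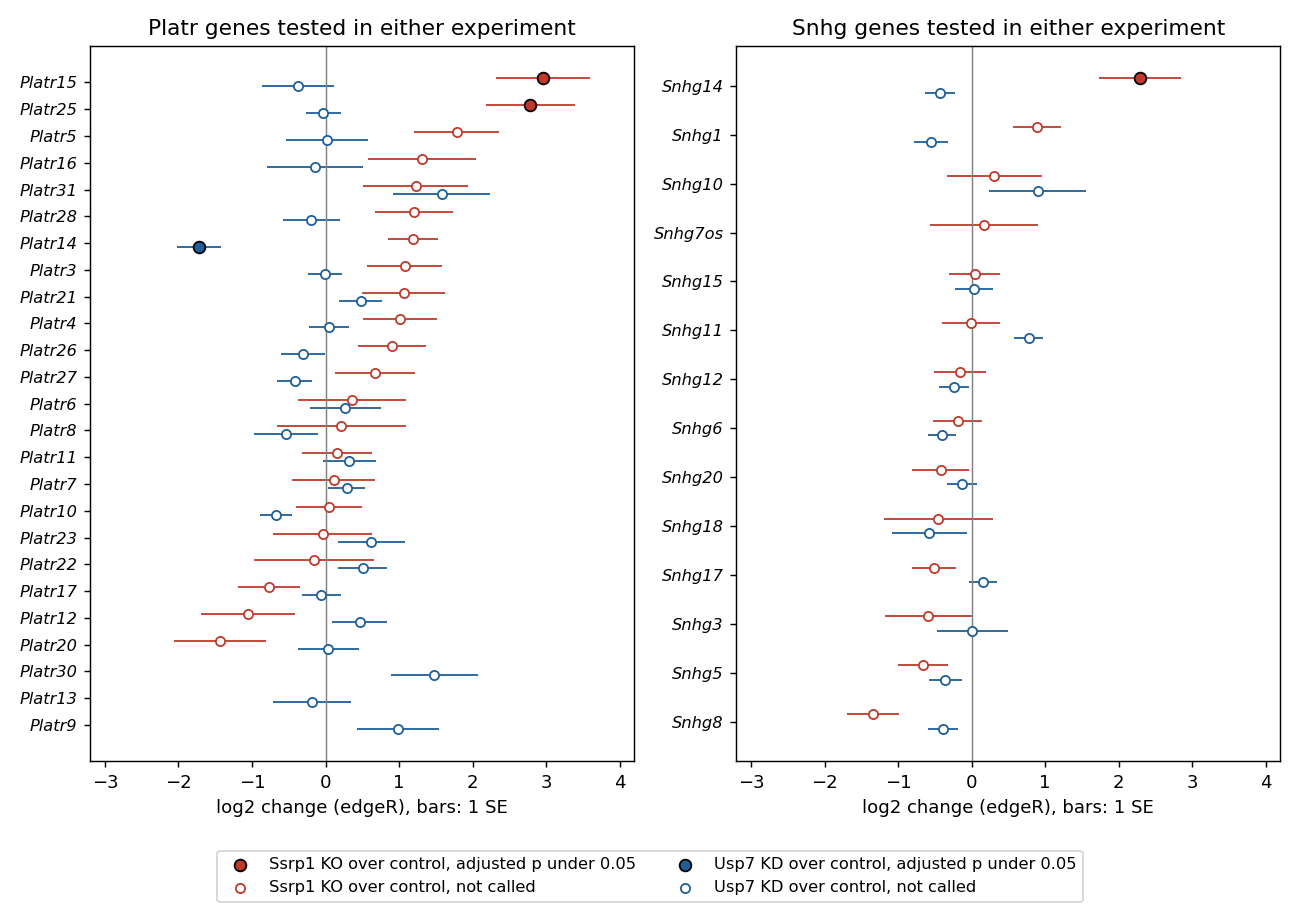
Log2 change of every Platr gene (left) and Snhg gene (right) tested in either experiment, for the libraries labelled Ssrp1 knockout over controls (red) and Usp7 knockdown over controls (blue), with bars of 1 SE; filled points passed an edgeR adjusted p of 0.05. Platr15, Platr25 and Snhg14 stand to the right in red, and Platr14 is the filled blue point at -1.72.

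Among the Snhg genes, Snhg14 was called higher in the libraries labelled Ssrp1 knockout and none was called lower. Snhg8 was lower without passing the test (log2 change -1.34, edgeR adjusted p = 0.0616). Of 15 members 14 were tested and 1 was called, where 3.71% of all genes tested were. The median log2 change was -0.17, against 0.03 over all genes, with 5 above 0 and 9 below. Both libraries labelled knockout lay above both controls for 2 of the 14 and below both for 3, where 27.3% and 22.7% of all genes did.

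Snhg14 (ENSMUSG00000100826, chromosome 7, 59307924 to 59975759, minus strand) is the very long host of the Snord115 and Snord116 clusters, and its far end runs antisense to the ubiquitin ligase gene Ube3a. It holds 208 annotated small RNA genes and 26093 bp of merged exon. It had 32.7 and 9.77 CPM in libraries labelled Ssrp1 knockout, against 3.87 and 4.76 CPM in controls. The groups did not overlap, and replicate 1 labelled knockout was the high one. The log2 change was 2.29 (SE 0.56, edgeR adjusted p = 0.0493). It was 1.13 (adjusted p = 0.265) once GC content and length were corrected for and 1.12 (adjusted p = 0.17) without knockout replicate 1, and the adjusted p was 0.415 without control replicate 1 and 0.104 without control replicate 2.

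Exons of Snhg14 and Ube3a overlap by 1803 bp on opposite strands, so their reads cannot be told apart there without strand. Ube3a had 68.0 and 30.2 CPM in libraries labelled Ssrp1 knockout, against 7.22 and 10.4 CPM in controls, and rose (log2 change 2.48, SE 0.43, edgeR adjusted p = 0.0156). Its log2 change was 1.38 (adjusted p = 0.074) once GC content and length were corrected for, and its adjusted p was 0.169 without control replicate 1. Snrpn, an imprinted gene beside Snhg14 on the same strand, had 57.4 and 75.7 CPM in libraries labelled knockout, against 50.02 and 41.6 CPM in controls (log2 change 0.54, edgeR adjusted p = 0.366). Ube3a and Snrpn were chosen after their values were seen. In the Usp7 experiment Snhg14 was at 29.3 and 24.3 CPM in knockdown libraries, against 35.4 and 36.8 CPM in controls. These did not overlap, and the log2 change of -0.43 (SE 0.20) did not pass the test (edgeR adjusted p = 0.314). Snhg14 and Platr25 have a GC content of 38.1% and 39.2%, against medians of 48.1% for Snhg genes and 46.9% for Platr genes.

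Snhg8, the host of Snora24, had 28.0 and 24.0 CPM in libraries labelled Ssrp1 knockout, against 86.3 and 45.6 CPM in controls. The groups did not overlap, and control replicate 1 was far above the rest. The log2 change of -1.34 (SE 0.35) did not pass the test (edgeR adjusted p = 0.0616). It passed in 8 of 10 alternatives, among them DESeq2 (adjusted p = 0.0106), the joint fit of 8 libraries (0.02) and the replicate block (0.0254), and without control replicate 2, knockout replicate 1 or knockout replicate 2 (0.0269, 0.0067 and 0.0302). The exceptions were the correction for GC content and length (-1.32, adjusted p = 0.0643) and the fit without control replicate 1 (-0.83, adjusted p = 0.711). Snhg1, the host of Snord22 and 7 other small RNAs, had 90.2 and 83.5 CPM in libraries labelled knockout, against 33.5 and 60.2 CPM in controls. Its log2 change of 0.89 (SE 0.32, edgeR adjusted p = 0.164) was 0.04 once GC content and length were corrected for. Snhg5, the host of Snord50a and Snord50b, had a log2 change of -0.66, and Snhg17, Snhg6 and Snhg12 had -0.51, -0.19 and -0.16, none past the test.

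**Figure D4:**
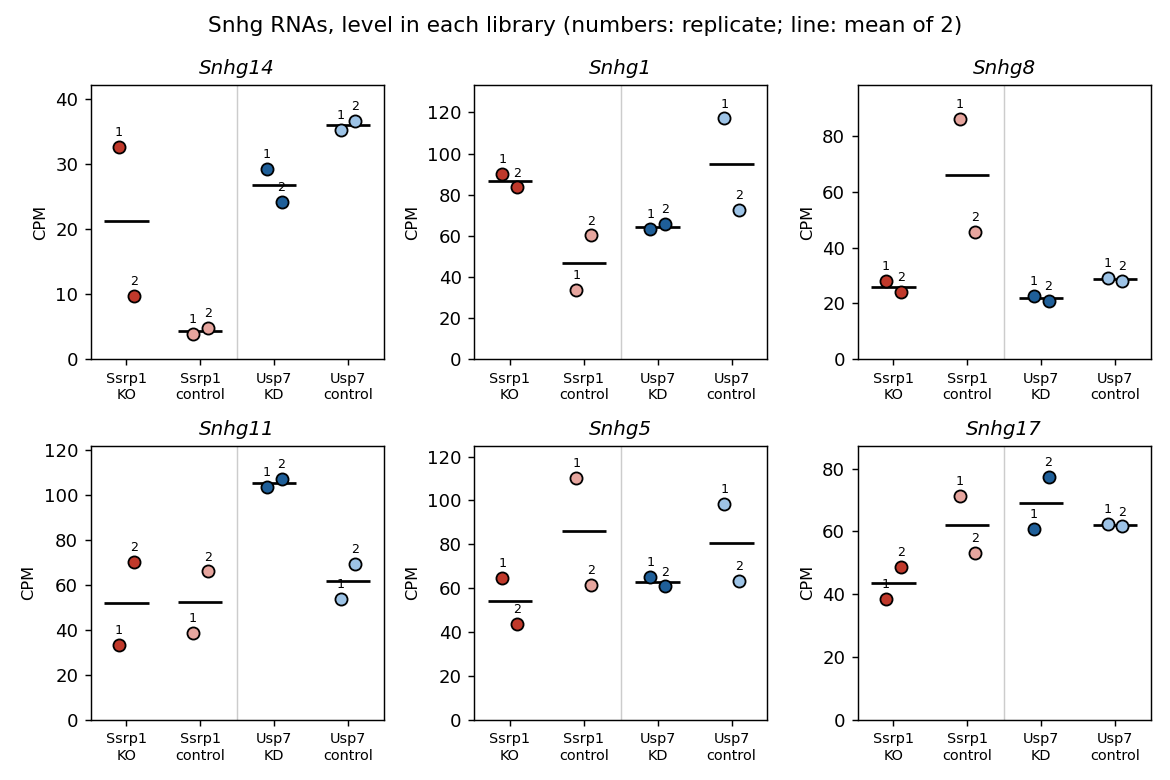
CPM (vertical axis, from 0) of 6 Snhg RNAs in each library of the Ssrp1 knockout, Ssrp1 control, Usp7 knockdown and Usp7 control groups. Points are libraries with their replicate number and lines are means of 2. Snhg14 is lowest in the Ssrp1 controls, Snhg8 is highest there, and Snhg11 is highest in the Usp7 knockdown at 104 and 107 CPM.

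In Usp7 knockdown cells edgeR called 0 of 13 Snhg genes tested, where 2.99% of all genes were called. At an unadjusted p under 0.05 there were 2, Snhg1 and Snhg11, against 16.7% of all genes, and DESeq2 called 1, Snhg11. The median log2 change was -0.24, against -0.02 over all genes, with 5 above 0 and 8 below. Both knockdown libraries lay above both controls for 1 member and below both for 6 (24.6% and 23.4% of all genes).

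Snhg11 had 104 and 107 CPM in Usp7 knockdown libraries, against 53.7 and 69.4 CPM in controls. The knockdown values lay close together and above both controls, and the log2 change was 0.77 (SE 0.19, edgeR adjusted p = 0.0623). In the Ssrp1 experiment Snhg11 had 33.2 and 70.3 CPM in libraries labelled knockout, against 38.5 and 65.9 CPM in controls, with overlap and a log2 change of -0.01. Snhg1 had 63.3 and 65.6 CPM in Usp7 knockdown libraries, against 117 and 72.4 CPM in controls (log2 change -0.56, SE 0.23, edgeR adjusted p = 0.255). Both knockdown values lay below both controls.

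The small RNAs that the Snhg genes carry gave few counts. SnoRNAs carry no poly(A) tail, and per the labels the libraries were made with an mRNA-seq kit. Annotated snoRNA or scaRNA genes lie inside 14 of the 15 Snhg genes and inside 0 of the 30 Platr genes, and Snhg7os is the Snhg gene without any. In 9 of the 14 hosts the embedded genes had 0 counts in all libraries, among them the 8 inside Snhg1 against 10023 counts for the host. In Snhg1, Snhg8 and Snhg12 the merged exons cover the whole gene, so reads on the embedded RNAs also overlap the host. How such reads were counted, and why the counts are few, was not tested. The embedded RNAs of Snhg6 had 40 counts in all and that of Snhg10 had 42. The RNA inside Snhg9 had 7 and 7 counts in libraries labelled Ssrp1 knockout, against 16 and 8 in controls, and 11 and 11 counts in Usp7 knockdown libraries, against 11 and 13 in controls. Its host overlaps an exon of the ribosomal protein gene Rps2 on the opposite strand.

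Genes for proteins that act on these RNAs were compared next. Of 13 genes for proteins of snoRNPs, the complexes of snoRNAs with proteins, or for their assembly, edgeR called 0 in either experiment. Of 14 factors of nonsense-mediated decay it also called 0 in either experiment. At an unadjusted p under 0.05 there were 6 of the 13 snoRNP genes, 2 higher and 4 lower, and 2 decay factors in the libraries labelled Ssrp1 knockout, against 18.2% of all genes. In the Usp7 knockdown there were 0 and 1, against 16.7% of all genes. DESeq2 called 1 decay factor in the Ssrp1 experiment and none otherwise. Of 6 other noncoding snoRNA hosts edgeR called 0, with 0 in the Ssrp1 and 2 in the Usp7 experiment below an unadjusted p of 0.05 (18.2% and 16.7% of all genes), and DESeq2 called 0 in both. Among them Gas5 had 48.3 and 86.9 CPM in libraries labelled Ssrp1 knockout, against 45.2 and 57.0 CPM in controls. Of 14 other noncoding RNAs of stem cells tested, Trp53cor1, a p53-induced RNA, rose in the Usp7 knockdown to 2.66 and 2.91 CPM, against 0.766 and 0.646 CPM in controls (log2 change 1.97, SE 0.46, edgeR adjusted p = 0.0454), where 2.36% of all genes rose. Of 24 pluripotency genes, Nr0b1 and Tcl1 fell in the libraries labelled Ssrp1 knockout (log2 changes -1.91 and -1.27, edgeR adjusted p = 0.0393 and 0.0384), where 0.324% of all genes fell. At an unadjusted p under 0.05 there were 5 of the 24, 3 higher and 2 lower (18.2% of all genes), and DESeq2 called 3. In the Usp7 knockdown edgeR called 0 of the 24, 5 had an unadjusted p below 0.05 (16.7% of all genes) and DESeq2 called 1. Neither Nr0b1 nor Tcl1 passed the test once GC content and length were corrected for (edgeR adjusted p = 0.0946 and 0.0687). Without Ssrp1 control replicate 1 their log2 changes were -1.26 and -0.98. Trp53cor1 lost the call in 2 of 6 settings that kept every library (edgeR or DESeq2 adjusted p up to 0.306). Its log2 change ran from 1.84 to 2.10 with a library left out.

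Protein-coding genes start within 50 kb of 34 members, 20 Platr and 14 Snhg genes. Of the 33 distinct neighbours 29 were tested in each experiment and 1 was called in each, Zfp281 in the Ssrp1 and Myo1g in the Usp7 experiment, against 3.71% and 2.99% of all genes, so these calls are near the background. Zfp281, a zinc finger regulator of pluripotency that starts 251 bp from Platr23, had 152 and 55.6 CPM in libraries labelled Ssrp1 knockout, against 26.2 and 35.6 CPM in controls, and rose (log2 change 1.75, SE 0.43, edgeR adjusted p = 0.0495). Platr23 itself had 2.37 and 0.933 CPM in these libraries, against 1.44 and 1.93 CPM in controls, with overlap. The Zfp281 change was 1.15 (adjusted p = 0.166) once GC content and length were corrected for, 1.53 (adjusted p = 0.41) without control replicate 1 and 0.79 (adjusted p = 0.213) without knockout replicate 1. Myo1g, a myosin gene 7795 bp from the start of Snhg15, fell in the Usp7 knockdown to 12.6 and 12.2 CPM, against 23.7 and 23.9 CPM in controls (log2 change -0.94, edgeR adjusted p = 0.0438), while Snhg15 had a log2 change of 0.03. Myo1g lost the call in 2 of 6 settings that kept every library (edgeR or DESeq2 adjusted p up to 0.165). Its log2 change ran from -0.96 to -0.92 with a library left out. Of the neighbours of called members, Cstf3, which starts 31360 bp from Platr14, had log2 changes of 0.26 and 0.13 in the Ssrp1 and Usp7 experiments (edgeR adjusted p = 0.704 and 0.758). Gm5141, 25099 bp from Platr25, had a log2 change of 2.69 in the libraries labelled Ssrp1 knockout (edgeR adjusted p = 0.12). Vsx1 near Platr15 had 0 to 2 counts per library, and Snurf near Snhg14 had 0 in every library.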

How the data were processed

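The data are mRNA-seq of 8 libraries of E14 cells, in groups taken from the sample titles. The authors deposited raw read counts for each gene, 1 table per experiment. Per the submitters' processing notes, cutadapt, HISAT2 and featureCounts were used on mm10; versions, annotation release, strand mode and handling of multiply mapped reads are not stated there. The 92 spike-in rows were all at 0 and stayed out, and 67 identifiers had no annotation.

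The 4 libraries of an experiment were fitted together in edgeR (version 4.0.16, R version 4.3.3): filterByExpr, TMM scaling, the quasi-likelihood F test and Benjamini-Hochberg adjustment over all genes tested, called at an adjusted p under 0.05. Differences between the changes used a fit of 8 libraries. CPM used TMM-scaled totals; SEs derive from the log2 change and the F statistic. The fitting scripts were checked on simulated counts. Alternatives were DESeq2 1.42.0, no filter, loess offsets for GC and length, each library left out, the replicate number as a block, a joint fit and plain library totals.

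Members and lists were chosen with earlier results of these data known. Named were members called, the 6 most abundant per family, the 4 largest changes per family and experiment among genes of at least 2 CPM, neighbours of called members, the targets, and up to 3 called genes of a list. Other genes named, among them Platr30, Platr31, Platr16, Zfp281, Myo1g and Gas5, were chosen after their values were seen.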

Additional observations from a re-analysis of the deposited data

Results flagged for a closer look

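The 2 changes of Platr14 differed. It had 56.05 and 61.4 CPM in libraries labelled Ssrp1 knockout, against 18.4 and 32.9 CPM in controls, and 17.9 and 8.84 CPM in Usp7 knockdown libraries, against 46.5 and 41.5 CPM in controls. The Ssrp1 change minus the Usp7 change was 2.87 on the log2 scale (edgeR adjusted p = 0.0258), and this test of the difference is why the RNA is listed. The Usp7 change passed its own test and the Ssrp1 change did not (edgeR adjusted p = 0.0125 for Usp7 and 0.0815 for Ssrp1). The difference did not pass without Ssrp1 control replicate 1, Usp7 control replicate 1, Usp7 control replicate 2 or Usp7 knockdown replicate 2 (adjusted p = 0.116, 0.112, 0.0719 and 0.173).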

How the results depend on the processing

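The changes of 60 members and other named genes, counted per comparison, were followed through 612 alternatives: 474 kept direction and side of the threshold, 51 passed the threshold anew, 41 lost it and 46 changed sign. Sign changes fell in 18 of the 60, of which 0 were called. The cause was not tested. Genes called in the Ssrp1 experiment (585) numbered 1109 with DESeq2, 178 with GC and length offsets, 1314 in the joint fit, 1497 without a filter and 20 to 1884 with a library left out, 20 being without control replicate 1. With DESeq2, whose test and scaling both differ from edgeR's, 898 were higher and 211 lower, against 534 and 51. Genes called in the Usp7 experiment (476) numbered 775 with offsets, 78 in the joint fit, 100 without a filter and 42 to 3770 with a library left out. For the difference (171) there were 673 with DESeq2, 945 without a filter and 1 to 1109 with a library left out; with offsets 67 were higher and 84 lower, against 104 and 67.

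Platr genes called in the Ssrp1 experiment (2) were 4 with DESeq2, 4 without a filter, 1 with offsets and 0 to 6 with a library left out. Snhg genes (1) were 2 with DESeq2, 2 in the joint fit, 2 without a filter, 0 with offsets and 0 to 2 with a library left out. In the Usp7 experiment Platr genes (1) were 0 in the joint fit, 0 without a filter and 0 to 4 with a library left out, and Snhg genes (0) were 1 with DESeq2, 1 with offsets and 0 to 3. For the difference Platr genes (1) were 3 with DESeq2, 3 without a filter and 0 to 3, and Snhg genes (0) were 1, 2 and 0 to 2. With a library left out the Snhg median ran from -0.57 to 0.0060 in the Ssrp1 and from -0.41 to -0.050 in the Usp7 experiment, and the Platr median from -0.085 to 0.29 in the Usp7 experiment. With plain library totals the Usp7 knockdown sums were 244 CPM for Platr and 487 CPM for Snhg genes.

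Replicate numbers are shared between groups, but no label says that a number marks a shared source; deviations of same-numbered libraries correlated at 0.184 and 0.144. With the replicate block 988, 1471 and 525 genes were called in the Ssrp1, Usp7 and difference tests, and 1073, 1699 and 383 with the block and offsets. Members called with the block were 3 Platr and 2 Snhg genes (Ssrp1), 2 and 1 (Usp7) and 3 and 1 (difference); with block and offsets they were 3 and 2, 2 and 3, and 2 and 1, and the Platr median in the Usp7 experiment was 0.22.

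Changes that reversed sign in the Ssrp1 experiment were Platr10 (-0.40 with offsets, -0.0047 in the joint fit, -0.21 with the replicate block, -0.58 with block and offsets), Platr7 (-0.018 with offsets, -0.19 with the block, -0.26 with both) and Platr8 (-0.46, -0.39 and -0.90 in the same order). Cstf3 was -0.73 with offsets and -0.72 with block and offsets, and Gas5 -0.18 and -0.30. Platr17 in the Usp7 experiment was 0.21 with offsets and 0.22 with block and offsets. With a library left out, Ssrp1 changes ran from -1.17 to 0.68 for Platr10, -0.27 to 0.54 for Platr11, -0.91 to 0.48 for Platr23, -1.27 to 0.79 for Platr7, -2.41 to 1.09 for Platr8, -0.66 to 0.41 for Snhg11, -0.63 to 0.13 for Snhg12, -0.60 to 0.066 for Snhg6, -0.11 to 0.51 for Cstf3 and -0.087 to 0.71 for Gas5. Usp7 changes ran from -0.16 to 0.85 for Platr11, -1.10 to 0.39 for Platr15, -0.43 to 0.43 for Platr17, -0.36 to 0.58 for Platr20, -0.17 to 0.10 for Platr25, -0.085 to 0.14 for Platr5, -0.031 to 0.32 for Snhg17 and -0.31 to 0.47 for Snhg15. The filter left out members without about 10 counts in at least 2 libraries, so the main fits give no change for them. The fit without a filter covered all 30 Platr genes in the Ssrp1 experiment.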
